A study of Avena sativa with 108 samples.

Results

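The genes described here are 120 of the 68572 oat genes in the deposited count tables. The rule that defines them uses names: each carries a closest UniProt match whose description holds "autophagy-related protein", "metacaspase", "Bax inhibitor" or "endonuclease" with a number. By that name 56 were autophagy genes, 37 metacaspases, 3 copies of Bax inhibitor 1, and 15 endonucleases of the S1/P1 type (Endonuclease 1, 2 or 4). The last 9 were nucleases of DNA replication and repair that the wording also took in, and they are described apart. Oat is a hexaploid, and 45 of the genes lay on A, 34 on C and 41 on D subgenome chromosomes. A gene is written here as the short name of its match followed by the end of its identifier, so ATG18b_6Ag0001889 is the gene AVESA.00001b.r3.6Ag0001889 on chromosome 6A, matched to Autophagy-related protein 18b.

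The study followed grain of 2 unmodified Canadian oat cultivars, AC Morgan and CDC Morrison, by RNA sequencing. Whole developing grain was collected at 5, 10, 15, 20, 25, 30, 35 and 40 days postemergence of the panicle (DPE), with 3 replicates per cultivar and time, each a pool of 10 grains from a single panicle with the glumes removed. Embryo and endosperm were collected separately from dry grain (0 h) and after 3, 6, 24 and 48 h on damp filter paper, again with 3 replicates per cultivar, tissue and time. A developing-grain library therefore mixes maternal coat, endosperm and embryo of 1 panicle, and nothing in the labels separates aleurone from starchy endosperm. Here 15 to 25 DPE is called filling, 30 to 40 DPE maturing and 5 to 10 DPE young grain.

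Autophagy is the pathway by which a cell wraps part of its own cytoplasm in a double membrane and delivers it to the vacuole. A kinase complex with ATG13, ATG101 and ATG11 starts the process, ATG9, ATG2 and ATG18 supply and shape the membrane, and ATG3 and ATG16 help to couple the small protein ATG8 to it. Cereal endosperm dies as the grain ripens while the aleurone layer and the embryo stay alive, and the aleurone dies only after germination has begun. Metacaspases are cysteine proteases tied to plant cell death, S1/P1 nucleases break down nucleic acids in dying tissue, and Bax inhibitor 1 is a membrane protein of the endoplasmic reticulum that restrains cell death.

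Estimated counts summed to between 11235846 and 30846412 in the 47 grain libraries used, between 4800265 and 19597061 in the 30 endosperm libraries, and between 3895703 and 39871377 in the 30 embryo libraries. Replicate 1 of CDC Morrison at 10 DPE, with a total of 2184611, was left out. The dry (0 h) endosperm libraries of CDC Morrison stood apart from each other: their 10 highest genes took 7.62%, 40.5% and 21.2% of the counts, against 16.7% to 17.5% in AC Morgan, and pairs of them differed by 135 to 245 times the counting variance. Levels are given as CPM, the count as a share of the library total after TMM scaling, and are compared between libraries for 1 gene or set, never between genes. The summed starchy-endosperm markers (avenins, 12S globulins and granule-bound starch synthase) followed the labels. They lay between 69876 and 163050 CPM in dry endosperm and between 2344 and 8654 CPM in dry embryo. The embryo homeobox list did not separate the tissues at 0 h, at 136 to 226 CPM in endosperm and 125 to 150 CPM in embryo. In whole grain, fewer cells of a type and less RNA per cell cannot be told apart.

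Of the 120 genes, 104 had enough counts to be tested in grain, and all 16 that did not were metacaspases. Between filling and maturing grain, 31 genes rose and 49 fell (edgeR, quasi-likelihood test, p-values adjusted after Benjamini and Hochberg over all 62030 genes tested), as did 34.1% and 40.7% of all those genes. The autophagy genes divided, with 23 rising and 22 falling of 56. The metacaspases moved one way, with 0 rising and 17 falling of the 21 tested (also 17 at an unadjusted p under 0.05), and the S1/P1 endonucleases mostly so, with 2 rising and 8 falling of 15. Metacaspase genes near 0 in maturing grain could be tested only through younger libraries, so they could hardly be called as rising. Scaled by library size alone, the counts over all members turned to 51 rising and 27 falling, since that scaling moved the median change of all genes from -0.13 to 0.33 on the log2 scale. The autophagy genes then stood at 37 rising and 7 falling, and the metacaspases at 1 and 14. Changes below are relative to the TMM scaling.

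The steepest rise belonged to the 3 copies of ATG18b, a WD-repeat protein of the family that binds phosphoinositides on the growing autophagosome membrane. Their summed level was 14.1, 15.3 and 12.2 CPM in the AC Morgan replicates at 25 DPE, 16.1, 20.1 and 18.7 CPM at 30 DPE, 83.7, 85.5 and 95.2 CPM at 35 DPE, then 98.6, 88.7 and 90.9 CPM at 40 DPE. In CDC Morrison it was 17.2, 14.4 and 20.7 CPM at 25 DPE, 121, 115 and 41.5 CPM at 30 DPE, 119, 134 and 127 CPM at 35 DPE, then 138, 152 and 134 CPM at 40 DPE. All libraries of 35 and 40 DPE lay above all libraries of 25 DPE in both cultivars. The AC Morgan libraries of 30 DPE lay just above the filling libraries of that cultivar, which ran from 8.76 to 15.3 CPM, and far below its libraries of 35 DPE. On the log2 scale the change from filling to maturing grain was 2.78 ± 0.10 (SE) for ATG18b_6Cg0000887, 2.78 ± 0.13 for ATG18b_6Ag0001889 and 2.52 ± 0.11 for ATG18b_6Dg0001566 (adjusted p = 1.2e-22, 1.5e-20 and 2.5e-21, edgeR). All 3 copies rose, and their sum does not depend on how reads were shared between them.

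**Figure D1:**
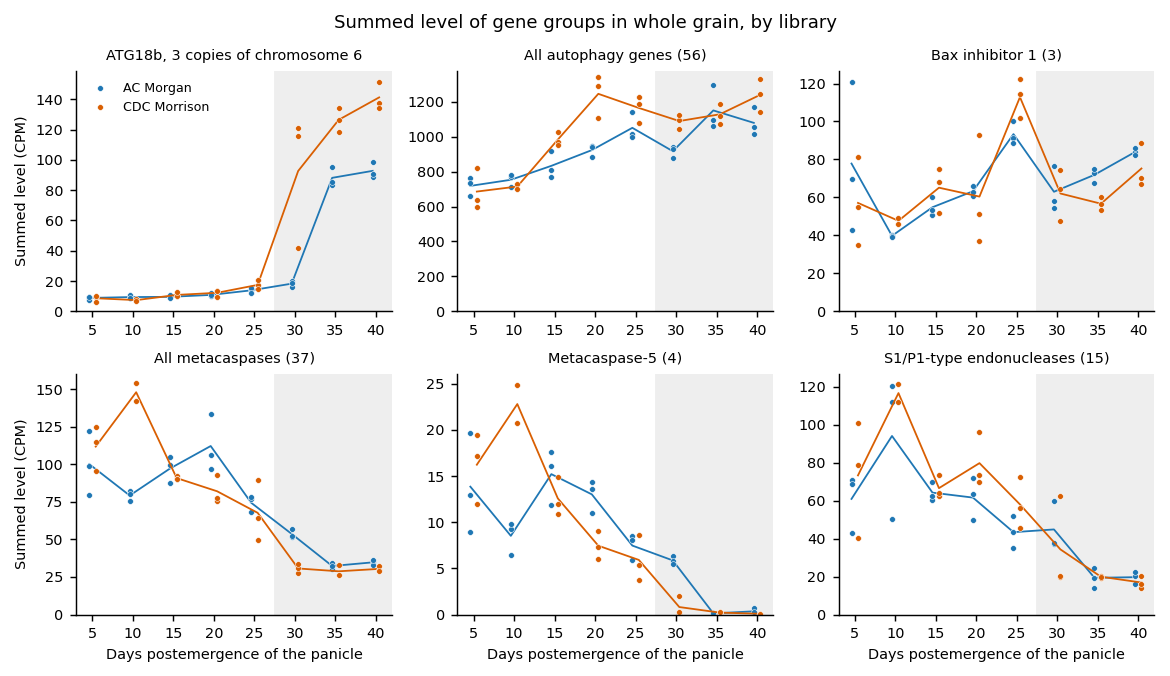
Summed CPM of 6 sets of genes in whole grain from 5 to 40 DPE, with AC Morgan in blue and CDC Morrison in orange. Points are libraries, lines join group means and the shaded band marks 30 to 40 DPE. The 3 ATG18b genes climb to 115 to 121 CPM in 2 of 3 CDC Morrison libraries at 30 DPE, while AC Morgan is at 16.1 to 20.1 CPM at 30 DPE and at 83.7 to 95.2 CPM at 35 DPE; the Metacaspase-5 genes drop at the same ages.

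Other ATG18 genes followed on a smaller scale. In AC Morgan ATG18d_3Dg0002210 stood at 0.7, 0.785 and 0.866 CPM at 25 DPE but at 5.02, 4.21 and 4.03 CPM at 40 DPE, and at 1.18, 0.841 and 1.03 CPM and then 5.54, 6.51 and 4.8 CPM in CDC Morrison. The groups did not overlap in either cultivar, and the change over the whole windows was 2.11 ± 0.17 (log2, SE; adjusted p = 7.2e-14, edgeR). ATG18d_1Ag0000055 rose by 1.47 ± 0.11. With both cultivars averaged, the fall was confined among the 17 genes of this family to the 3 copies of ATG18a and to ATG18d_3Dg0002128. The last fell by 0.23. Under library size alone the signs of ATG18a_4Dg0003618 and ATG18d_3Dg0002128 turned, and 14 of the 17 rose with 1 falling, against 11 and 4 with TMM. Within CDC Morrison ATG18c_3Ag0000514 also fell past the threshold with TMM, and its sign turned under library size alone.

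ATG8, the protein that is anchored in the autophagosome membrane and marks it, showed opposite changes between its types. In AC Morgan ATG8d_5Cg0001567 went from 4.84, 4.6 and 3.59 CPM at 25 DPE to 14.7, 11.9 and 11.8 CPM at 40 DPE, and from 4.31, 4.4 and 4.34 CPM to 15.1, 16.4 and 11.8 CPM in CDC Morrison. It rose by 1.62 ± 0.10 on the log2 scale (adjusted p = 5.4e-17, edgeR), and its homeolog ATG8d_5Ag0002007 by 1.58 ± 0.10. ATG8c_7Cg0002072 went the other way, in AC Morgan from 33.2, 38 and 39.1 CPM at 25 DPE to 15.6, 15.3 and 13.5 CPM at 40 DPE, and from 41.4, 36.1 and 36.7 CPM to 16.1, 19.9 and 19.4 CPM in CDC Morrison. Its change was -1.14 ± 0.09 (adjusted p = 1.6e-14), and it was the only tested member whose 18 maturing libraries all lay below all 18 filling libraries, as 1.35% of all tested genes did. ATG8a_2Cg0000715 fell by 0.80 ± 0.08, while ATG8a_2Ag0000115 and ATG8a_2Dg0002679 had changes of -0.14 and -0.07 that did not pass. Over the family 2 genes rose and 4 fell of 9, and under library size alone 5 rose and 2 fell.

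The remaining autophagy genes moved by family and by less. All 3 copies of ATG2, a lipid transfer protein that feeds the growing membrane, rose under both scalings, by 0.78 ± 0.12 for ATG2_2Dg0000192, 0.55 ± 0.14 for ATG2_7Ag0001285 and 0.42 ± 0.17 for ATG2_7Dg0000286 (adjusted p = 3.8e-07, 0.00049 and 0.027, edgeR). ATG101, a subunit of the initiating kinase complex, had 2 genes rising of 3, with ATG101_3Cg0000048 at 0.58 ± 0.07. ATG13, its partner, divided by type: the 3 ATG13b genes rose, by 0.28 to 0.65, and the 5 ATG13a genes fell, though the sign of 3 of these turned under library size alone. The 3 ATG11 scaffold genes fell by 0.33 to 0.41 with TMM and turned sign under library size alone, and the 3 ATG16 genes fell by 0.67 to 0.85, of which 2 passed under both scalings. None of the 3 genes for ATG9, the membrane protein carried on vesicles, passed, with changes of -0.10, 0.04 and 0.13. The conjugating enzyme ATG3 had ATG3_1Ag0000893 rising by 0.73 ± 0.07 and ATG3_1Dg0000883 falling by 0.54 ± 0.07, and ATG36_5Ag0000558, named for a yeast protein of peroxisome turnover, fell by 0.96.

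**Figure D2:**
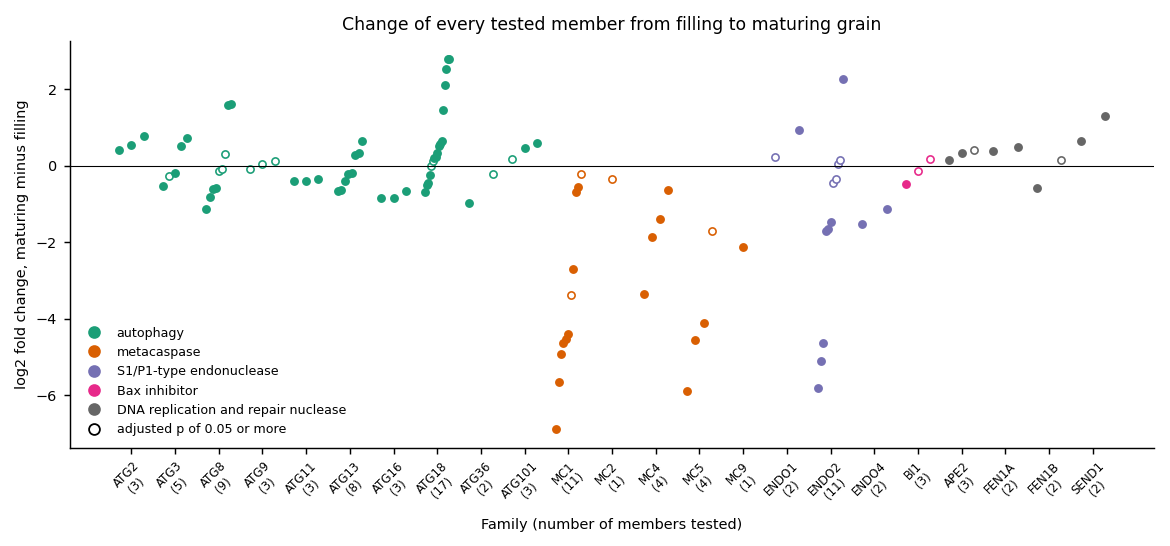
Change from filling to maturing grain (log2 fold change, mean of both cultivars, vertical axis) of every tested gene, grouped by family along the horizontal axis. Filled points passed an adjusted p of 0.05 and open points did not. ATG18b lies highest at 2.52 to 2.78, and the metacaspase and Endonuclease 2 families hold the lowest points, down to -6.88.

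Metacaspase transcripts fell, and those of Metacaspase-5, a type II enzyme, fell to near 0. In AC Morgan MC5_1Ag0001633 was at 1.91, 2.75 and 2.06 CPM at 25 DPE, at 2.08, 2.32 and 1.62 CPM at 30 DPE, then at 0.145, 0.0422 and 0.048 CPM at 35 DPE. In CDC Morrison it was at 3.47, 1.73 and 0.886 CPM at 25 DPE but already at 0.0561, 0.108 and 0.177 CPM at 30 DPE. The fall came between 30 and 35 DPE in AC Morgan and between 25 and 30 DPE in CDC Morrison, and left values close to 0. On the log2 scale it was -4.55 ± 0.25 (adjusted p = 2.7e-18, edgeR), against -5.87 ± 0.31 for MC5_1Dg0001656 and -4.11 ± 0.32 for MC5_1Ag0003154. The gene beside the last, MC5_1Ag0003153, held 3 counts in maturing and 9 in filling grain and is left without a fold.

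Metacaspase-4, a protease of the same type that needs calcium in Arabidopsis, kept a reduced level. MC4_3Cg0002712 of AC Morgan stood at 15.5, 13.5 and 11.9 CPM at 25 DPE, at 9.1, 9.87 and 7.86 CPM at 30 DPE, then at 4.12, 5.06 and 3.84 CPM at 35 DPE, and at 15.5, 13.4 and 8.77 CPM, 2.75, 2.75 and 5.1 CPM, and 2.92, 3.65 and 2.98 CPM in CDC Morrison. It fell by 1.86 ± 0.09 (log2, SE; adjusted p = 5.9e-20), and MC4_3Dg0001989 by 1.38 ± 0.09. The single Metacaspase-9 gene, MC9_5Cg0001377, whose Arabidopsis namesake acts in the clearing of dying xylem cells, fell by 2.13 ± 0.28 (adjusted p = 2.4e-08) from a level at 15 and 20 DPE that ranged from 2.97 to 18 CPM between CDC Morrison libraries.

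Many Metacaspase-1 and Metacaspase-2 genes sat in runs of neighbouring identifiers, with 6 genes on 5A, 6 on 5D and 4 on 4C. The sequences of these genes were not compared. Where they are close, reads may be split between them, so the run is given beside its single genes. The 16 genes together lay between 2.38 and 29.5 CPM in filling grain, with a median of 7.26 CPM, and between 0 and 3.02 CPM in maturing grain, with a median of 0.286 CPM. MC1_4Cg0002725, the leading gene on 4C, went in AC Morgan from 9.39, 4.73 and 5.07 CPM at 15 DPE to 0, 0 and 0 CPM at 35 DPE, and stood at 6.13, 3.3 and 3.66 CPM and then 0, 0 and 0.0481 CPM in CDC Morrison. In both cultivars every library of 15 DPE was above every library of 35 DPE, and the change was -6.88 ± 0.44 (adjusted p = 1.6e-15, edgeR). Outside the runs the changes were smaller, with MC1_1Ag0000937 at -0.68 and MC1_1Dg0000926 at -0.55, while MC1_1Cg0001608 at -0.21 did not pass.

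ENDO2_1Cg0000479, an Endonuclease 2 gene, fell between the windows. In AC Morgan it was at 30.6, 36.9 and 38.6 CPM at 15 DPE, at 2.99, 3.14 and 4.82 CPM at 25 DPE, at 1.69, 2.36 and 1.36 CPM at 30 DPE, then at 0.0485, 0.127 and 0.0959 CPM at 35 DPE. In CDC Morrison it was at 25.9, 21.8 and 14.2 CPM at 15 DPE, at 2.07, 1.29 and 2.19 CPM at 25 DPE, then at 0, 0 and 2.51 CPM at 30 DPE. The change between windows was -5.81 ± 0.38 (log2, SE; adjusted p = 4.6e-16). ENDO2_3Cg0000142 fell by 4.64 ± 0.32.

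ENDO2_5Ag0002204 did the reverse. In AC Morgan it went from 0.5, 0.057 and 0.0406 CPM at 15 DPE to 3.36, 5.9 and 5.18 CPM at 40 DPE, and stood at 0.344, 0.388 and 0.846 CPM and then 3.46, 3.79 and 5.4 CPM in CDC Morrison. It was higher in all 40 DPE libraries than in all 15 DPE libraries, and rose by 2.25 ± 0.23 between the windows (adjusted p = 7.2e-11, edgeR). Of the 11 Endonuclease 2 genes 1 rose and 6 fell, and under library size alone 3 and 5. Both Endonuclease 4 genes fell, ENDO4_1Cg0000482 by 1.51 ± 0.31 and ENDO4_3Ag0000198 by 1.12 ± 0.36, and 1 of them passed under library size alone. ENDO1_2Cg0002886, named for a nuclease active in leaf senescence and cell death of Arabidopsis, rose by 0.94 ± 0.18.

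Bax inhibitor 1 changed little between the windows taken as a whole, but it moved within them. Its summed level had a median of 67.1 CPM and a highest value of 122 CPM in filling grain, and a median of 68.9 CPM and a highest value of 88.6 CPM in maturing grain. In AC Morgan the sum was 100, 91.4 and 88.5 CPM at 25 DPE, then 76.4, 54.5 and 58.1 CPM at 30 DPE. In CDC Morrison it was 122, 114 and 102 CPM, then 64.5, 74.3 and 47.4 CPM. These ages did not overlap in either cultivar. At 40 DPE the sum was 83.7, 82.1 and 85.8 CPM in AC Morgan and 88.6, 67 and 70.2 CPM in CDC Morrison. Of the 3 copies only BI1_2Dg0000678 passed, at -0.47 ± 0.14 (adjusted p = 0.0029), and that sign turned under library size alone. Of the 9 replication and repair nucleases 6 rose and 1 fell, among them the flap endonuclease FEN1A_1Ag0003398, which trims DNA flaps during replication, at 0.48 ± 0.06, and SEND1_7Ag0002769, a single-strand DNA endonuclease named in rice, at 1.30 ± 0.16.

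The turn from the filling to the maturing pattern was dated by stepwise tests. From 20 over 15 DPE 2 members rose and 0 fell (all genes: 0.883% and 0.0242%), and from 25 over 20 DPE 13 rose and 8 fell (10.1% and 9.86%). From 30 over 25 DPE, averaged over the cultivars, 7 rose and 30 fell (all genes: 15.7% and 15.6%). From 35 over 30 DPE 16 rose and 16 fell (12.7% and 18.3%), and from 40 over 35 DPE 0 rose and 0 fell (0.00322% and 0.00322%), with edgeR in each case. At an unadjusted p under 0.05 the first of these steps counted 23 members and the last 3. At 30 DPE 21 members were higher and 15 lower in CDC Morrison than in AC Morgan (all genes: 17% and 19.2%).

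At that age CDC Morrison was above AC Morgan by 2.58 ± 0.25 on the log2 scale for ATG18b_6Cg0000887, 2.41 ± 0.30 for ATG18b_6Ag0001889 and 1.97 ± 0.25 for ATG18b_6Dg0001566 (adjusted p = 3.2e-10, 8.1e-08 and 1.3e-07, edgeR). ATG18d_3Dg0002210 was higher by 2.51 ± 0.40. Metacaspases were lower, with MC5_1Ag0001633 at -3.99 ± 0.57 (adjusted p = 1e-06) and MC4_3Cg0002712 at -1.32 ± 0.21 (adjusted p = 9.8e-06). At 35 DPE and at 40 DPE, each tested alone, the ATG18b differences were between 0.14 and 0.79 and did not pass, with adjusted p from 0.05 to 0.79. Their summed level still did not overlap at these ages, at 83.7 to 98.6 CPM in AC Morgan and 119 to 152 CPM in CDC Morrison. With both ages in 1 test CDC Morrison was higher by 0.66 ± 0.16 for ATG18b_6Cg0000887 and 0.72 ± 0.20 for ATG18b_6Ag0001889 (adjusted p = 0.0024 and 0.0069, edgeR), and ATG18b_6Dg0001566 differed by 0.24 ± 0.17 (adjusted p = 0.37).

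The starchy-endosperm markers moved at the same ages. They summed to between 321570 and 904370 CPM over filling libraries, at 30 DPE to between 215120 and 225120 CPM in AC Morgan and to 14985, 23933 and 80756 CPM in CDC Morrison, and 55 of the 58 list genes fell from filling to maturing grain with 1 rising. The green-tissue markers stood at 146, 42.6 and 57.8 CPM in AC Morgan and 11.2, 11.1 and 12.1 CPM in CDC Morrison at 30 DPE, with 67 falling and 3 rising of 89. Of the 9 oleosin genes of oil-storing tissue 9 rose, of the 25 homeobox genes of the embryo 8 rose and 7 fell, and of the 17 alpha-amylase genes 2 rose and 13 fell. Replicate 3 of CDC Morrison at 30 DPE, with the highest starchy-endosperm sum of its group, also had its lowest ATG18b sum and its highest ENDO4_1Cg0000482 level, 14.5 CPM against 1.07 and 0.701 CPM. The part of tissue makeup in these member results was not tested.

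Over the whole windows the change differed between cultivars, being higher in CDC Morrison for 3 members and lower for 13 (all genes: 4.75% and 5.76%). The 3 were the ATG18b copies, at 1.00 ± 0.20, 0.98 ± 0.24 and 0.74 ± 0.20 for ATG18b_6Dg0001566, ATG18b_6Ag0001889 and ATG18b_6Cg0000887. None of them passed when maturing grain was taken as 35 and 40 DPE only, where the differences were 0.42, 0.42 and 0.097. Leaving replicate 1 out of every group left differences of 0.92, 0.97 and 0.63, close to those with all replicates, but none passed (adjusted p = 0.11, 0.14 and 0.25, edgeR), and 0 higher and 2 lower members remained past the threshold. Leaving out replicate 2 gave 0.77, 0.59 and 0.55 with none passing, and counts of 0 and 6. Within AC Morgan alone 33 members rose and 37 fell (all genes: 30.3% and 35.4%), and within CDC Morrison alone 25 and 51 (31.6% and 38.4%).

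Copies of some genes differed between the cultivars in opposite directions. In filling grain 31 members were higher and 9 lower in CDC Morrison (all genes: 11.4% and 12%), against 21 and 12 under library size alone and 17 higher when replicate 1 of every group was left out. At 15 DPE BI1_2Dg0000678 was at 6.44, 7.3 and 5.96 CPM in AC Morgan and 29.1, 15.3 and 24.1 CPM in CDC Morrison, at 20 DPE the values were 10.5, 6.2 and 8.29 CPM against 37.1, 15.5 and 19.7 CPM, and at 25 DPE they were 15.2, 11.9 and 12.4 CPM against 50.3, 49.7 and 24.7 CPM. Its CDC Morrison libraries were above those of AC Morgan at each of these ages, with a difference of 1.66 ± 0.20 over the filling window (log2, SE; adjusted p = 2.2e-08) and 0.64 ± 0.20 in maturing grain. BI1_1Ag0002481 was lower in CDC Morrison, by 0.98 ± 0.26 in filling and 1.12 ± 0.26 in maturing grain (adjusted p = 0.0047 and 0.001), and BI1_6Cg0001476 differed by 0.02 ± 0.17 in filling grain (adjusted p = 0.98).

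ATG2 showed the same kind of opposition. ATG2_7Ag0001285 was at 36.7, 32.2 and 37.7 CPM in AC Morgan and 17.6, 13.7 and 20.8 CPM in CDC Morrison at 25 DPE, while ATG2_7Dg0000286 was at 33.3, 29.9 and 35.3 CPM and 60.1, 52.1 and 49.7 CPM. The A copy was thus lower and the D copy higher in CDC Morrison with no overlap at that age. Over the filling window the differences were -1.01 ± 0.19 and 1.01 ± 0.24 (adjusted p = 9.9e-05 and 0.0018, edgeR), against 0.40 for ATG2_2Dg0000192, which did not pass (adjusted p = 0.088). Whether reads of these copies were assigned differently in the 2 cultivars, whose sequences may differ from the reference, was not tested.

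A few members were all but missing from 1 cultivar. MC1_5Ag0000905 held 201 counts over the 9 AC Morgan filling libraries and 1 count over the 9 of CDC Morrison, a ratio of 187 by CPM with a 95% interval of 33.1 to 7406 that covers counting error only. APE2_5Dg0002569, an endonuclease of base excision repair, held 266 counts in filling and 368 in maturing CDC Morrison grain and 0 in AC Morgan, at least 95.5-fold and 148-fold higher against a floor of 3 counts over the group. Between CDC Morrison replicates it ranged from 0.224 to 6.85 CPM over 15 to 40 DPE. In maturing grain 16 members were higher and 14 lower in CDC Morrison (all genes: 16.4% and 18.1%), with ATG16_7Cg0000797 at -1.16 ± 0.12 and ATG13a_6Cg0003321 at 0.87 ± 0.13.

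**Figure D3:**
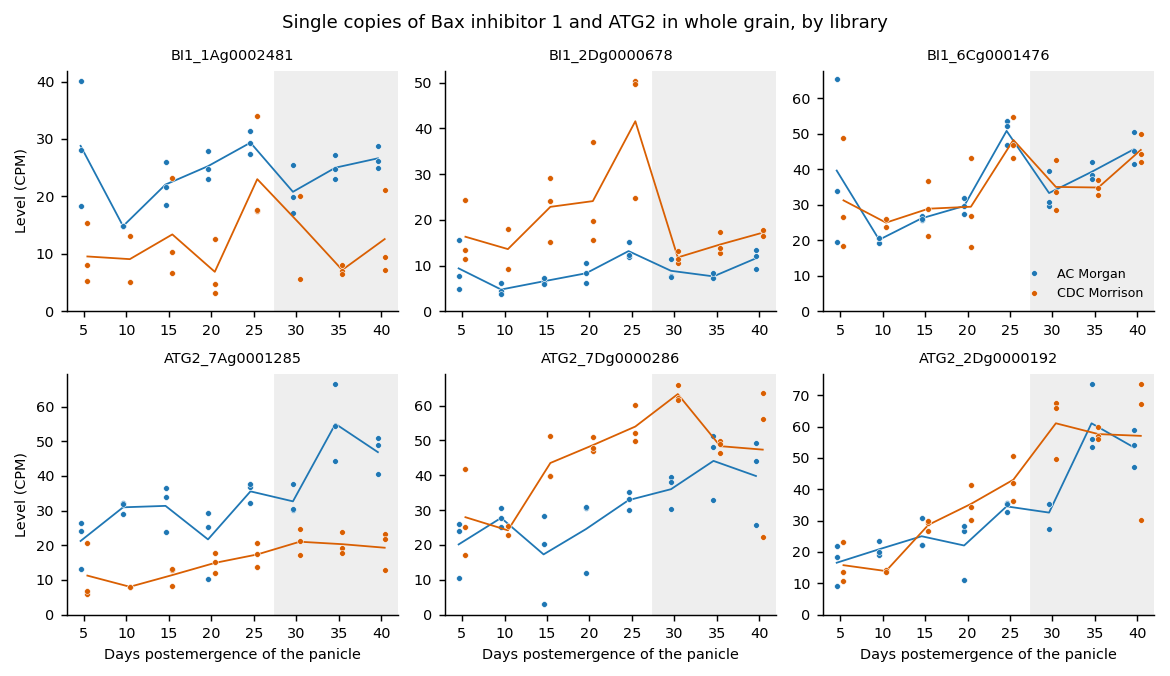
CPM of the 3 Bax inhibitor 1 genes and the 3 ATG2 genes in whole grain by DPE, with AC Morgan in blue and CDC Morrison in orange, points for libraries and lines for group means. In the 2D copy of Bax inhibitor 1 CDC Morrison reaches 50.3 CPM at 25 DPE against 15.2 CPM in AC Morgan, while both cultivars lie between 43.2 and 54.7 CPM for the 6C copy; the 7A and 7D copies of ATG2 part in opposite directions.

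From young to filling grain 50 members were higher and 22 lower (all genes: 28.2% and 32.1%), but this split rested on the scaling: under library size alone it was 7 and 74, and the median change of all genes was -1.08 on the log2 scale. For the autophagy genes the counts were 37 rising and 4 falling with TMM and 0 and 44 under library size alone. ATG101_3Cg0000048 had a change of 1.11 and ATG9_1Dg0002881 of 1.28 with TMM, neither past the threshold under library size alone, and MC4_3Cg0002712 was already lower in filling than in young grain, by 0.83.

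Related genes outside the named set did not all move with it. Of 41 tested genes of other autophagy machinery (ATG1, ATG4, ATG7 and similar names, Beclin and phosphatidylinositol 3-kinase) 18 rose and 14 fell from filling to maturing grain, with a median of 0.12. Of 13 nutrient-sensing kinase genes 3 rose and 6 fell, and of 67 cell-death regulators (LSD1-like, BAG, DAD1 and serpin names) 27 rose and 23 fell. Other hydrolases of cell death, which are KDEL-tailed endopeptidases, vacuolar processing enzymes and ribonucleases, had 8 rising and 26 falling of 37, with a median of -2.27. Over all genes the median was -0.13, with 34.1% rising and 40.7% falling. By 48 h in endosperm the other autophagy machinery had 11 rising and 10 falling of 41, the kinases 6 and 1 of 13, the cell-death regulators 11 and 30 of 70, and the other hydrolases 13 and 10 of 37, with medians of 0.05, 0.20, -0.56 and 0.84. Over all genes the median was 0.13 at 48 h, with 29% rising and 24.9% falling. The counts of these lists are with TMM.

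In endosperm 3 h after imbibition 0 of the 111 tested members rose and 0 fell (all 62447 genes: 0.189% and 0.0272%), with 9 at an unadjusted p under 0.05 in edgeR. At 6 h 2 rose and 0 fell (2.99% and 0.921%), and 11 were at an unadjusted p under 0.05, while DESeq2 called 3 and limma 4 as falling. The 2 were the ATG36 genes, with ATG36_5Dg0000164 at 1.02 ± 0.22 (log2, SE; adjusted p = 0.0024, edgeR), and neither passed when replicate 2 or replicate 3 of every group was left out. At 24 h 8 rose and 47 fell (all genes: 25.5% and 21%), and at 48 h 25 rose and 47 fell (29% and 24.9%). Without replicate 2 of every group the rising counts were 4 at 24 h and 15 at 48 h, and without replicate 3 they were 4 and 16. With each dry CDC Morrison endosperm library left out in turn, 6 to 8 rose and 44 to 49 fell at 24 h, and 21 to 23 rose and 40 to 45 fell at 48 h. Under library size alone the 48 h counts were 38 and 18, and the median change of all genes was 0.69. The autophagy genes stood at 5 rising and 34 falling at 48 h with TMM and at 12 and 11 under library size alone, so the direction of that class depended on the scaling. The metacaspases stood at 11 rising and 4 falling of 28, and 13 and 1 under library size alone, and the S1/P1 endonucleases at 8 and 3, and 9 and 1. Metacaspase and endonuclease genes near 0 at 0 h could be tested only through their counts in other libraries, so they could hardly be called as falling.

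ATG18b fell farthest among the autophagy genes, and the fall of each copy held under library size alone. Its 3 genes summed to 114, 123 and 126 CPM in the AC Morgan endosperm at 0 h, 105, 99.8 and 127 CPM at 6 h, 21.1, 29.2 and 33.6 CPM at 24 h and 14.9, 15.4 and 14.4 CPM at 48 h. In CDC Morrison they summed to 221, 171 and 134 CPM at 0 h, 165, 138 and 139 CPM at 6 h, 27.1, 25.6 and 20 CPM at 24 h and 24.1, 19.4 and 19.7 CPM at 48 h. The 6 h libraries stayed near the 0 h level, and all libraries of 24 and 48 h lay below all of 0 h. The 48 h changes were -2.97 ± 0.20 for ATG18b_6Cg0000887, -2.79 ± 0.21 for ATG18b_6Ag0001889 and -3.42 ± 0.28 for ATG18b_6Dg0001566 (adjusted p = 6.3e-17, 6.6e-16 and 1.2e-14, edgeR). In the AC Morgan embryo the sum was already down at 6 h, from 95.6, 83 and 80.8 CPM to 41.8, 38.7 and 65.8 CPM.

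ATG3_1Ag0000893, the copy of the conjugating enzyme that had risen in ripening grain, went from 59.4, 61.8 and 71.5 CPM to 24.9, 22.7 and 21.8 CPM in AC Morgan and from 87.3, 66 and 69.2 CPM to 31.3, 26.8 and 30.8 CPM in CDC Morrison between 0 and 48 h. It fell by 1.40 ± 0.12 (adjusted p = 1.6e-13) with no overlap. Of the autophagy genes that rose, ATG13a_2Dg0001610 changed by 0.97 ± 0.22 (adjusted p = 0.00015), with values of 3.55, 3.68 and 5.32 CPM and then 4.98, 4.27 and 5.72 CPM in AC Morgan, and 6.22, 4.47 and 3.4 CPM and then 11.7, 19.7 and 15 CPM in CDC Morrison. The AC Morgan libraries overlapped and those of CDC Morrison did not, but the change did not differ between cultivars for any member past the threshold. That test counted 0 higher and 0 lower in edgeR, with 7 at an unadjusted p under 0.05, against 2 and 0 in DESeq2 and 7 and 2 in limma (all genes in edgeR: 0.711% and 0.767%).

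Bax inhibitor 1 fell in the endosperm in all 3 copies and under both scalings. Its sum was 111, 132 and 120 CPM in AC Morgan and 172, 144 and 165 CPM in CDC Morrison at 0 h, and 30.6, 31.4 and 23.4 CPM and 32.5, 36.6 and 41.6 CPM at 48 h, without overlap. The changes were -2.12 ± 0.21 for BI1_6Cg0001476, -2.13 ± 0.22 for BI1_1Ag0002481 and -2.17 ± 0.26 for BI1_2Dg0000678 (adjusted p = 5.6e-12, 2.8e-11 and 1.1e-09, edgeR). In the embryo of AC Morgan the sum went from 62.7, 58.7 and 63.5 CPM to 57.6, 42 and 38.3 CPM. With both cultivars averaged, the endosperm change was lower than the embryo change for each copy, with differences from -1.92 to -1.13 on the log2 scale.

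**Figure D4:**
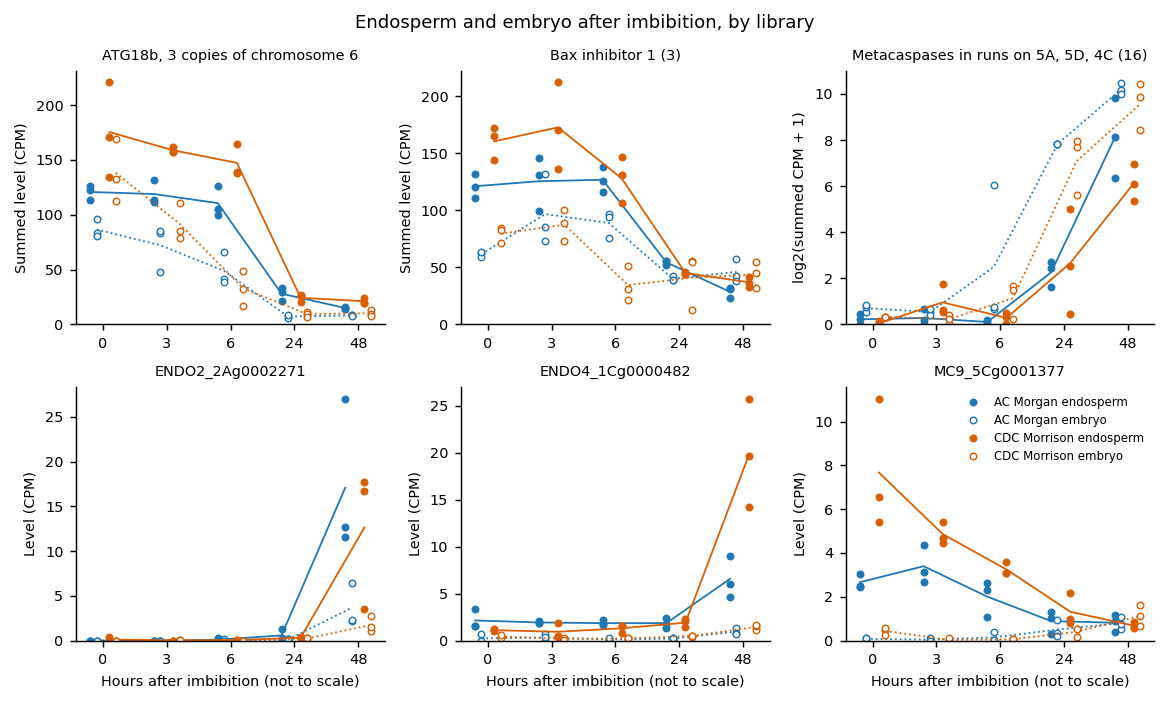
Levels after 0, 3, 6, 24 and 48 h of imbibition. The metacaspase runs are drawn as log2(summed CPM + 1), and the other sets and genes as CPM. Endosperm has filled points and solid lines, embryo open points and dotted lines, with AC Morgan in blue and CDC Morrison in orange. ATG18b and Bax inhibitor 1 drop after 6 h in endosperm, the metacaspase runs rise from near 0 to between 39.4 and 914 CPM at 48 h in endosperm and higher in embryo, and ENDO2_2Ag0002271 and ENDO4_1Cg0000482 are highest in the 48 h endosperm.

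The metacaspase runs were near 0 in dry grain and rose by 48 h. In the endosperm their 16 genes summed to 0 to 0.35 CPM at 0 h, and to 80.6, 280 and 914 CPM in AC Morgan and 66.9, 124 and 39.4 CPM in CDC Morrison at 48 h. The spread at 48 h was wide, and every 48 h library was far above every 0 h library. MC1_5Dg0000487 held 0 counts at 0 h and 6207 at 48 h, at least 1007-fold higher against a floor of 3 counts over the group, and MC1_4Cg0002725 held 2 and 2238 counts, a ratio of 566 with a 95% interval of 156 to 4674.

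In the embryo the same genes reached higher values. The runs summed to 1440, 1140 and 1010 CPM in AC Morgan and 348, 920 and 1370 CPM in CDC Morrison at 48 h, above the endosperm libraries of the same cultivar. The green-tissue markers stood at 972, 928 and 980 CPM and 210, 1242 and 1426 CPM in those embryo libraries, and at 9 to 25.7 CPM in the 48 h endosperm. The alpha-amylase markers of aleurone and scutellum rose in the endosperm with 19 of 23 genes, to between 3285 and 13291 CPM at 48 h, while the starchy-endosperm markers fell with 52 of 58 genes and the oleosins with 9 of 9. From 0 to 48 h 26 of the 28 tested metacaspase genes rose in embryo and 0 fell (edgeR), beside 40.2% and 27.7% of all genes. Genes near 0 in dry grain could be tested only through libraries where they were high, so they could hardly fall. These counts are therefore set in part by which genes were tested. The part of embryo tissue carried over into the endosperm samples was not tested. The cultivar gap of MC1_5Ag0000905 recurred, with 23.2, 75.6 and 227 CPM in AC Morgan and 0.335, 1.15 and 0.372 CPM in CDC Morrison endosperm at 48 h.

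Several Endonuclease 2 genes and ENDO4_1Cg0000482 rose in the endosperm, while ENDO4_3Ag0000198 did not pass. Endonuclease genes near 0 at 0 h could be tested only through other libraries, so they could hardly be called as falling. ENDO2_2Ag0002271 was at 0, 0 and 0 CPM in AC Morgan and 0, 0.344 and 0 CPM in CDC Morrison at 0 h, and at 27, 12.7 and 11.5 CPM and 3.51, 17.7 and 16.7 CPM at 48 h. It held 1 count at 0 h and 1069 at 48 h, a ratio of 540 with a 95% interval of 96.8 to 21360, and in the 48 h embryo it was at 1.01 to 6.48 CPM. ENDO4_1Cg0000482 rose from 1.52, 1.58 and 3.32 CPM to 9, 4.68 and 6.05 CPM in AC Morgan and from 1.18, 1.03 and 1.09 CPM to 14.2, 25.8 and 19.6 CPM in CDC Morrison, by 2.86 ± 0.37 (adjusted p = 7.9e-09, edgeR), without overlap in either cultivar. ENDO2_3Cg0000142 held 0 counts at 0 h and was at least 36.1-fold higher at 48 h.

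ENDO2_5Ag0002204 again ran against its family. It was at 8.62, 12.3 and 11.3 CPM in AC Morgan and 0.987, 2.41 and 17.6 CPM in CDC Morrison endosperm at 0 h, and at 0.192, 0.322 and 0.0806 CPM and 0, 0.182 and 0.212 CPM at 48 h. The CDC Morrison values at 0 h were far apart, yet all of them were above all 48 h values, and the change was -5.54 ± 0.62 (adjusted p = 2.1e-10). Both ENDO1 genes also fell with TMM, ENDO1_2Ag0002195 by 1.25 ± 0.32, and neither passed under library size alone.

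The 48 h change differed between endosperm and embryo, being higher in endosperm for 13 members and lower for 25 (all genes: 19.6% and 15.1%). The higher count fell to 3 without replicate 2 of every group and 8 without replicate 3, and the lower count to 15 in both cases. This comparison averages both cultivars. Pairs of 48 h embryo libraries differed by 14.5 to 94.8 times the counting variance in CDC Morrison, and by 4.17 to 7.86 times in AC Morgan. ATG13b_4Ag0000660 kept more of its level in endosperm, at 10.7, 12.6 and 14.1 CPM and then 8.62, 7.34 and 11.2 CPM in AC Morgan, than in embryo, at 13.4, 12.8 and 14 CPM and then 3.81, 3.06 and 4.71 CPM, a difference of 1.14 ± 0.23 (log2, SE; adjusted p = 9e-05). MC9_5Cg0001377 fell in endosperm from 3.04, 2.45 and 2.49 CPM to 1.15, 0.887 and 0.403 CPM in AC Morgan and from 5.43, 6.53 and 11 CPM to 0.837, 0.607 and 0.584 CPM in CDC Morrison. Its change was lower in endosperm than in embryo, with a difference of -5.002 ± 0.66 on the log2 scale (adjusted p = 5e-08, edgeR). SEND1_7Ag0002769 differed by -4.17 ± 0.59 and ATG13a_6Cg0003321 by -1.73 ± 0.27.

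**Figure D5:**
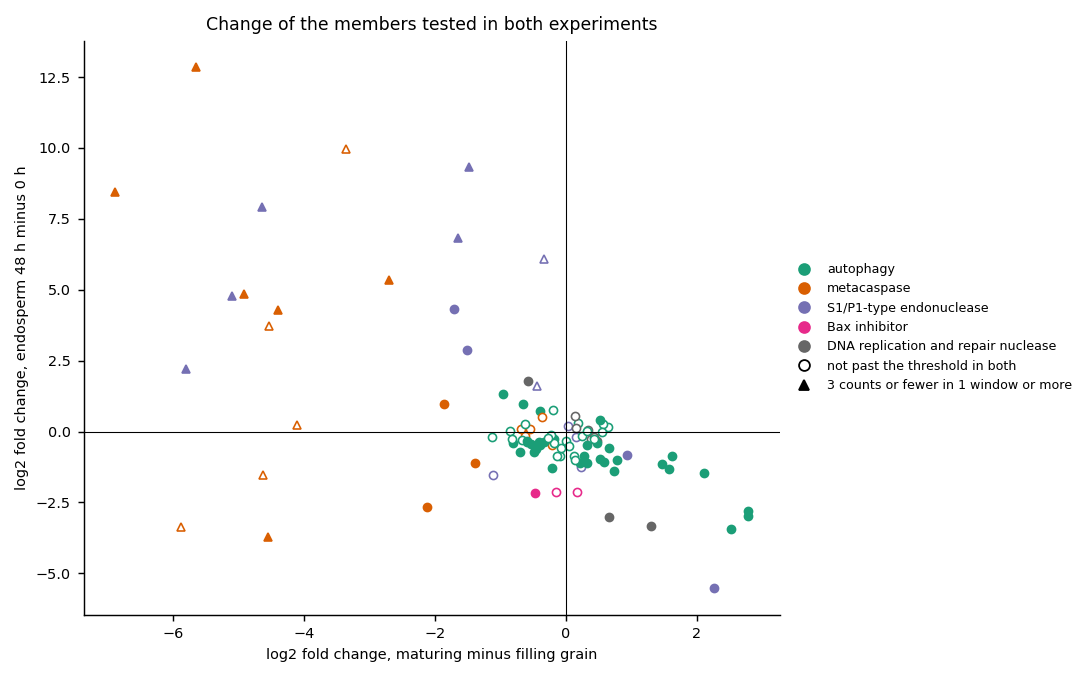
Change from filling to maturing grain (log2, horizontal axis) against change in endosperm from 0 to 48 h (log2, vertical axis) for the 102 genes tested in both experiments, colored by class. Filled points passed an adjusted p of 0.05 in both, and triangles held 3 counts or fewer in 1 or more windows, so their position on an axis is not a measured fold. The 3 ATG18b genes and ENDO2_5Ag0002204 lie at lower right, and other Endonuclease 2 genes and metacaspase run genes are among those at upper left.

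Set side by side, the ripening and imbibition changes ran opposite for many members, as they did for oat genes at large. Of the 102 genes tested in both experiments, 22 rose in maturing grain and fell in endosperm by 48 h, which is 71% of those that rose and 46.8% of those that fell later (all genes: 51.3% and 69.9%). Another 17 fell and then rose, 35.4% and 81% of their lists (all genes: 47% and 64%), among them 7 of the 8 S1/P1 endonucleases that had fallen. Both falls were shared by 15 members, 31.2% and 31.9% of the lists (all genes: 9.94% and 15.7%), including MC9_5Cg0001377, MC5_1Ag0001633, MC4_3Dg0001989, ATG18a_4Ag0003492 and ATG18a_4Dg0003029. These 5 kept their sign under library size alone and the other 10 did not. The 3 ATG11 genes and ATG3_1Cg0001558 turned in both comparisons, ATG18a_4Dg0003618, ATG13a_6Cg0003321 and BI1_2Dg0000678 turned in ripening grain, and ATG3_1Dg0000883, ATG8a_2Cg0000715 and ATG8c_7Ag0002528 turned in endosperm. ATG18h_1Dg0001158, a WD-repeat protein of the ATG18 family, was the 1 member that rose in both, by 0.51 in ripening grain and 0.41 in endosperm.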

How the data were processed

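RNA of 108 libraries was sequenced by the authors as single-end reads from a stranded mRNA kit. Reads were checked with FastQC, trimmed with Trim Galore and cleared of rRNA with Bowtie2, then quantified with Salmon against the OT3098 v2 oat transcriptome and summed per gene with tximport, so the deposited values are estimated counts that need not be whole. No source used here gives the versions of these tools. The authors also deposited variance-stabilized log2 values from DESeq2, which were read to check which libraries they had kept. The members and all gene lists were chosen with earlier results of these data known.

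Estimated counts were rounded to whole numbers. A gene was tested where 5% or more of the libraries held a count of 5 or more, with edgeR 4.0.16 in R 4.3.3 (TMM factors, quasi-likelihood F test, Benjamini-Hochberg adjustment over all genes, threshold 0.05). One fit covered 47 grain libraries in 16 groups, and another the 60 embryo and endosperm libraries in 20 groups, each with group means and no replicate block. Grain replicates came from separate panicles; for embryo and endosperm the sources used here do not give the origin of a replicate, so those p-values measure the spread between these samples only. Replicates differed by at least 11.5 times the counting variance in grain and 2.67 times in germinated grain, so none was counted as a repeat. Intervals for ratios with 1 to 3 counts cover counting error only (95%). In simulated counts of 60571 genes for maturing minus filling grain, 99% of the genes changed by 1 on the log2 scale were recovered and 100% of those changed by 2. For the endosperm change to 48 h (60112 genes) the shares were 34% and 98%. Every simulated gene had the same spread between replicates, and only genes above a minimum mean level were changed. The shares therefore do not describe members of lower level or wider spread.

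Named genes are the up to 10 risen and 10 fallen members with the smallest p in the maturing grain and 48 h endosperm comparisons, up to 4 in each direction in the others, and the member with the highest mean level in each family, with copies of the same description named beside them. Genes outside this rule that the text names were chosen after their values were seen. Alternatives were DESeq2 1.42.0, limma 3.58.1 on the variance-stabilized scale, RLE factors, library size alone, no filter or edgeR's own filter, a replicate block, all 48 grain libraries, 40 against 20 DPE, endosperm alone, and each library or replicate left out. Taking maturing grain as 35 and 40 DPE, and leaving out replicate 1 of CDC Morrison embryo at 48 h, were added after seeing the data. No genome or annotation was used, so no coordinates or sequences are given, and chromosomes are those in the gene identifiers.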

Additional observations from a re-analysis of the deposited data

Results flagged for a closer look

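The change from filling to maturing grain differed between cultivars (CDC Morrison minus AC Morgan, log2, edgeR interaction) for ATG18b_6Dg0001566 by 0.997, ATG18b_6Ag0001889 by 0.979 and ATG18b_6Cg0000887 by 0.736, and for ATG16_7Cg0000797 by -0.971, ENDO2_3Cg0000146 by -1.98, ATG3_1Dg0000883 by -0.592 and ENDO2_3Ag0000199 by -1.39. For ATG18b the adjusted p ranged from 0.29 to 0.91 with maturing grain as 35 and 40 DPE, from 0.34 to 0.96 with 40 against 20 DPE, and from 0.11 to 0.32 without replicate 1 or without replicate 2 of every group. ATG16_7Cg0000797 and ENDO2_3Ag0000199 did not pass without replicate 1, at adjusted p of 0.070 and 0.24, nor did ATG3_1Dg0000883 without replicate 2, at 0.10. With 40 against 20 DPE ATG3_1Dg0000883 and ENDO2_3Ag0000199 did not pass, at 0.28 and 0.11.

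The change from 0 to 48 h differed between endosperm and embryo (endosperm minus embryo, log2, edgeR interaction) for ATG13b_4Ag0000660 by 1.14, ATG13b_4Dg0001015 by 1.01, APE2_5Cg0002649 by 1.09 and ATG8d_5Cg0001567 by 0.991. The difference was negative for MC9_5Cg0001377 by -5.002, SEND1_7Ag0002769 by -4.17, ATG13a_6Cg0003321 by -1.73 and ENDO1_2Ag0002195 by -2.83. ATG13b_4Dg0001015 and ATG8d_5Cg0001567 did not pass without replicate 2 of every group, at adjusted p of 0.075 and 0.068.

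The AC Morgan embryo at 6 h enters no tested comparison above, but its ATG18b sums are given there and it is in the fit. Its replicate 2 held transcripts of the metacaspase runs that the other 2 libraries of its group all but lacked. MC1_5Dg0000487 was at 23.3 CPM, MC1_5Ag0000905 at 16.2 CPM, MC2_5Ag0000906 at 8.96 CPM, MC1_4Cg0002725 at 7.82 CPM and MC2_5Dg0000488 at 7.58 CPM, against at most 0.386 CPM in the others. In the same library the green-tissue markers summed to 72.5 CPM, against 14.6 and 14 CPM, and the alpha-amylase markers to 118 CPM, against 66.4 and 49.4 CPM. Their part in the metacaspase values was not tested.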

How the results depend on the processing

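Library size alone moved most counts of members: 51 rose and 27 fell in maturing grain (45 and 31 in CDC Morrison, 20 falling in AC Morgan), 7 and 74 from young to filling grain, 7 rose at 6 h in endosperm, 25 and 16 at 24 h, and 38 and 18 at 48 h, with 21 and 16 for endosperm against embryo. From young to filling grain ATG3_1Cg0001558 turned to -0.29 (adjusted p = 0.00031). With 40 against 20 DPE the cultivar difference of the change counted 0 higher and 5 lower, the cultivar difference in filling grain 4 lower, and that in maturing grain 5 and 5. With maturing grain as 35 and 40 DPE the same difference of change counted 0 higher and the maturing difference 9 higher. Falling members at 6 h were 1 with RLE factors, 3 with DESeq2 and 4 with limma. limma also gave 24 lower between cultivars in maturing grain, 13 rising at 24 h, 54 lower in endosperm than in embryo, and 7 higher and 2 lower for the cultivar difference at 48 h, where edgeR's own filter gave 2 higher, DESeq2 2 and endosperm alone 1. RLE factors gave 8 higher in endosperm than in embryo. The cause was not tested.

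With libraries or replicates left out, higher and lower counts ranged from 26 to 33 and 43 to 49 in maturing grain (CDC Morrison 19 to 26 and 41 to 52, AC Morgan 26 to 34 and 28 to 38), 0 to 5 and 2 to 17 for the cultivar difference of that change, 17 to 33 and 6 to 10 between cultivars in filling and 11 to 20 and 10 to 20 in maturing grain, and 42 to 47 and 17 to 24 from young to filling grain. In endosperm they ranged from 0 to 4 and 0 to 1 at 6 h, 4 to 9 and 40 to 49 at 24 h, 15 to 26 and 33 to 47 at 48 h, 0 to 3 and 0 to 0 for the cultivar difference, and 3 to 15 and 15 to 28 against embryo. For single named genes 4070 of 4109 values under all alternatives kept direction and call, but 22 of the 105 results failed to do so in 1 alternative or more. Of the values 3167 came from fits with a library or replicate left out, which kept the dispersion of the main fit. Most of these genes were also named for a small p in the same data. The share kept is therefore no independent measure of how well the results hold.

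Replicate numbers were not treated as pairs. Deviations of the same number were correlated over 0.1 in 2 of 23 cultivar pairs in grain and in 17 of 30 tissue pairs in germinated grain. There 19 of 30 matched best with their own number. Whether embryo and endosperm of 1 number came from the same grains was not tested, and the endosperm against embryo comparison ignored any such pairing. All 3 tissue pairs were over 0.1 in AC Morgan at 6 h (0.155 to 0.251) and CDC Morrison at 48 h (0.274 to 0.593). The block was 1 number across all groups, and no fit with the tissue pair as the block was run. With the replicate block 31 rose and 49 fell in maturing grain and 25 and 48 at 48 h in endosperm, and no count of calls moved by 1.5 times.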
